A study of Sus scrofa with 12 samples.

Results

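Chemokines and chemokine receptors were followed in the ovaries of sows with small or large litters. The genes were every row of the deposited gene table whose symbol begins with CCL, CXCL, CX3CL, XCL, CCR, CXCR, CX3CR, XCR or ACKR and a number, which gave 51 of 29884 gene rows, with 30 ligands, 17 receptors and 4 atypical receptors. The left ovaries came from pigs (Sus scrofa) of a commercial herd, free of 2 porcine viruses by the labels, and were taken 4 days after the 4th delivery. The small litter size (SLS) group, with 8.48 ± 0.53 piglets per litter by the labels, held the ovaries ZD2, ZD3 and ZD12. The large litter size (LLS) group, with 16.19 ± 0.43 piglets per litter, held ZD5, ZD7 and ZD8. The study's methods give mean ± SEM for its results in general, and do not name the error of the litter sizes. Each ovary is a whole organ and gave 1 library of total RNA, and no agent or transgene was used. Levels are given as FPKM, fragments scaled to transcript length and library depth. Comparisons between genes therefore depend on the annotated transcript lengths. The 6 ovaries are always listed as ZD2, ZD3 and ZD12 for SLS and ZD5, ZD7 and ZD8 for LLS.

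Chemokines are small secreted proteins that guide the movement of leukocytes and other cells. They act through G protein coupled receptors, which signal inside the cell mainly through inhibitory G proteins, while atypical receptors bind chemokines without this signalling and remove or transport them. In the ovary, chemokines are known for bringing macrophages, lymphocytes and granulocytes into the follicle around ovulation and into the regressing corpus luteum, the gland left after ovulation that makes progesterone.

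The families are named after the spacing of the first cysteines in the mature ligand, and this spacing can be read from the coding sequences. Cysteine codons (TGT or TGC) were searched in frame from codon 21 onward for the first neighbouring pair that was adjacent (CC), 1 codon apart (CXC) or 3 codons apart (CX3C). The spacing was that of the gene's name in 29 of 30 ligands, in 19 of 19 CC and 9 of 9 CXC chemokines and in CX3CL1, while XCL1 had no such pair. Over 20779 annotated coding sequences searched in the same way, the first pair was CC in 17.1%, CXC in 13.2% and CX3C in 14.2%. The windows of 5 ligands that carry most of the ligand signal or are discussed below are given 5′ to 3′ from the RefSeq sequence of Sscrofa11.1, with the cysteine codons in capitals. They lie at chr10:32094001-32094030 (plus strand) for CCL21, chr14:91520799-91520828 (plus) for CXCL12, chr6:19318654-19318683 (plus) for CX3CL1, chr12:40799061-40799090 (minus) for CCL2 and chr2:137812609-137812638 (minus) for CXCL14, all in coding exons.
CCL21: caggacTGTTGCctcaaatacagcctaagg
CXCL12: tacagaTGCcctTGCcgattctttgagagc
CX3CL1: aacaaaTGCagcatcaagTGCagcggtatg
CCL2: gtcaccTGCTGCtatacacttaccagtaag
CXCL14: tccaaaTGCaagTGCtcccggaagggaccc

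Signalling chemokine receptors carry aspartate, arginine and tyrosine (DRY) at the inner end of the third membrane helix, where the G protein couples. In-frame codons for these amino acids (GAC or GAT, any arginine codon, TAC or TAT) were found between codons 101 and 171 in 14 of 17 receptors and in 2 of 4 atypical receptors, and in 6.53% of the 20779 coding sequences. The windows of 3 receptors on which the results turn are shown with these codons in capitals. They lie at chr15:15666041-15666067 for CXCR4, chr13:24013095-24013121 for CCR8 and chr15:136381051-136381077 for ACKR3, all on the plus strand and in coding exons.
CXCR4: ctgGACCGGTACctggctatcgtccat
CCR8: gtgGACAGGTACctggccattgtccgt
ACKR3: gtgGACCGCTACctgtccgtggcctac

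The libraries held between 32272803 (ZD8) and 60903268 (ZD2) reads. ZD8 stood apart before any comparison of groups. Its 6 luteal cell markers summed to 123 FPKM, beside 9167 to 12191 in the other ovaries, and STAR, which brings cholesterol into the mitochondrion, was at 26.4 against 2542 or more. The summed level of 2 theca markers was 415 in ZD8 against 9.31 to 74.4, and that of 5 oocyte markers 122 against 6.25 to 22.4. In whole ovaries, fewer cells of a type and less RNA per cell cannot be told apart. The fitted differences that move with ZD8 are therefore also given without it, and the part of its makeup in these results was not tested.

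Of the 51 genes, 29 reached 1 FPKM in at least 1 ovary, 20 ligands, 6 receptors and 3 atypical receptors. Over all gene rows the share that reached 1 FPKM was 48.9%. In at least 3 ovaries the level was 1 FPKM or more for 22 members, 14 ligands, 5 receptors and 3 atypical receptors, against 41.0% of all rows. In every ovary it was so for 17, which were 11 ligands, 3 receptors and 3 atypical receptors, against 36.7%. By ovary, 21, 20 and 24 members were at 1 FPKM or more in SLS and 22, 20 and 27 in LLS. By group, 19 members were at this level in all 3 SLS ovaries and 20 in all 3 LLS ovaries. The receptors were the role with the lowest share at this level in at least 3 ovaries, and 11 of the 17 stayed below 1 FPKM in every ovary.

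**Figure D1:**
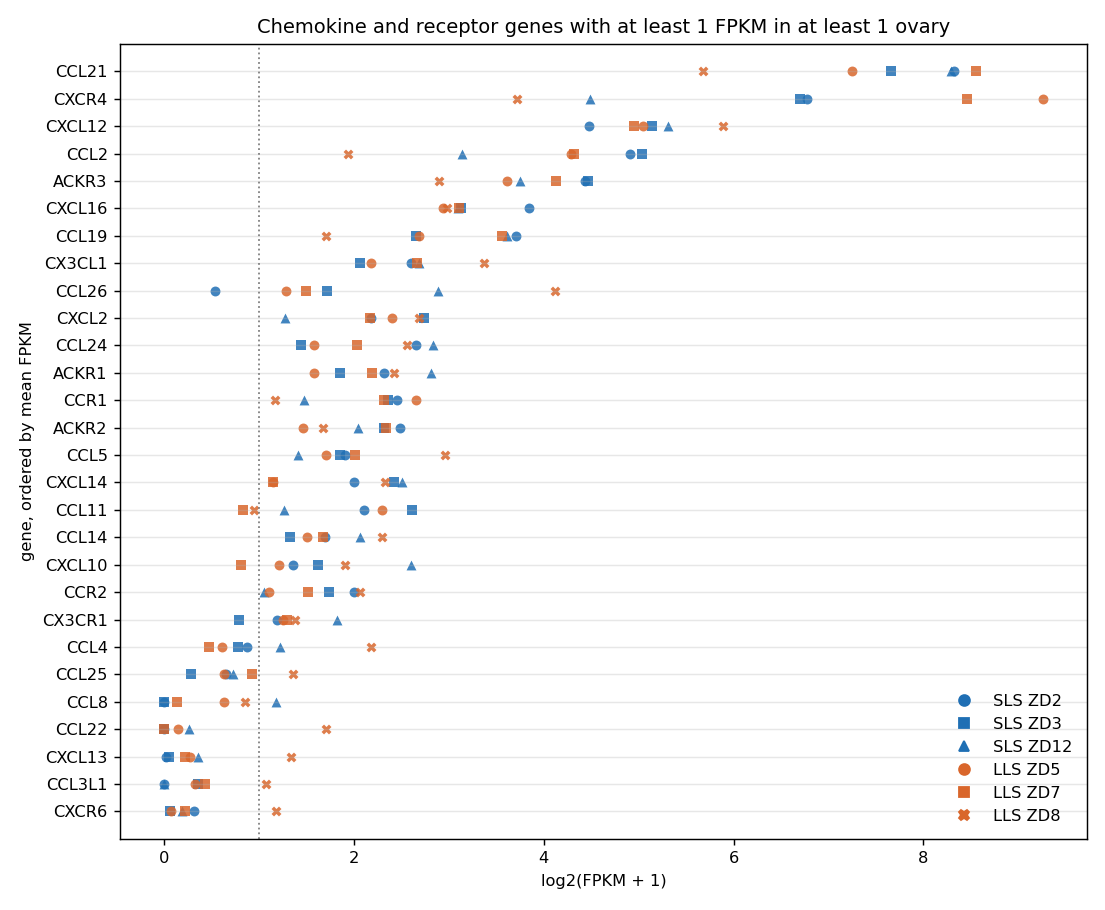
log2(FPKM + 1) of 28 chemokine and receptor genes that reached 1 FPKM in at least 1 ovary, ordered by mean FPKM, with 1 point per ovary for the 3 SLS and 3 LLS ovaries and a dotted line at the level of 1 FPKM. CCL21, CXCR4 and CXCL12 have the highest means, and CXCR4 has the widest range.

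A few genes made up most of the chemokine signal. The FPKM of all members summed to 576, 452 and 468 in SLS and 879, 854 and 224 in LLS. CCL21, CXCR4 and CXCL12 together made up 78.1%, 74.9% and 79.6% of this sum in SLS and 90.8%, 88.6% and 53.8% in LLS. The highest single member by FPKM was CCL21 in ZD2, ZD3, ZD12 and ZD7, CXCR4 in ZD5 and CXCL12 in ZD8. This order depends on the annotated transcripts, of 439 nucleotides for CCL21 and 6214 for CXCL12. By reads CXCL12 was above CCL21, with 31780 against 20398 in SLS and 34443 against 14557 in LLS.

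Among the homeostatic ligands, which are made without inflammation, CCL21 had the highest mean FPKM, although CXCL12 was higher in ZD8 (58.1 against 50.3). CCL21, which draws CCR7-bearing dendritic cells and T cells towards lymphatic vessels and lymphoid tissue, was at 320, 201 and 313 FPKM in SLS and 151, 375 and 50.3 in LLS. Its lowest value was in ZD8 and its highest in ZD7, so that the LLS ovaries enclosed the SLS range. CCL19, the other ligand of CCR7 and a neighbour of CCL21 on chromosome 10, was at 12.1, 5.30 and 11.2 FPKM in SLS and 5.44, 10.8 and 2.25 in LLS. The ovaries with more CCL21 mostly had more CCL19, and the level of CCL21 was 22.4 to 38.0 times that of CCL19 in each of the 6 ovaries. The receptor CCR7 itself was low, at 0.206, 0.189 and 0.220 FPKM in SLS and 0.129, 0.512 and 0.260 in LLS, from 16 to 67 reads. Lymphatic endothelium is a known source of CCL21, and its 4 markers (PROX1, LYVE1, FLT4 and PDPN) summed to 72.9, 72.3 and 64.4 FPKM in SLS and 33.3, 52.7 and 31.1 in LLS. None of the 4 was at 0, and 3 had non-overlapping groups, lower in LLS, as 389 of the 12260 genes tested had, while the CCL21 groups overlapped. LYVE1 and PDPN had an unadjusted limma p of 0.0120 and 0.0323, both with an adjusted p of 0.999. The part of lymphatic vessels in the CCL21 level was not tested.

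CXCL12, the ligand of CXCR4 and ACKR3 and made by stromal cells in many tissues, was at 21.2, 34.3 and 38.7 FPKM in SLS and 32.1, 29.9 and 58.1 in LLS. ZD8 was the highest, and the other 5 ovaries lay within a range of less than 2.0-fold. CXCL14, a ligand of epithelia and stroma, was at 2.99, 4.35 and 4.67 FPKM in SLS and 1.21, 1.21 and 4.00 in LLS. Its levels in ZD5 and ZD7 lay below each SLS ovary, and ZD8 lay within the SLS range. With ZD8 included, CXCL16 varied least among the members at 1 FPKM or more in every ovary. This membrane-bound chemokine also takes up oxidised lipoprotein. It was at 13.3, 7.74 and 7.51 FPKM in SLS and 6.65, 7.63 and 6.88 in LLS. Its receptor CXCR6, found on T and natural killer cells, was below 0.25 FPKM outside ZD8, where it was at 1.27. CX3CL1, the other membrane-bound chemokine, was at 5.07, 3.17 and 5.40 FPKM in SLS and 3.53, 5.33 and 9.31 in LLS, with ZD8 highest. Without ZD8 its range was 1.70-fold, narrower than the 2.0-fold of CXCL16. CX3CR1, its receptor on monocytes and macrophages, was at 1.27, 0.724 and 2.53 FPKM in SLS and 1.39, 1.45 and 1.61 in LLS. CX3CL1 was higher than CX3CR1 in every ovary, by 2.13 to 5.79 times, and the groups of both overlapped.

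The CC ligands other than CCL19 and CCL21 were mostly at a few FPKM or below. CCL2, which draws monocytes through CCR2, was at 29.0, 31.8 and 7.80 FPKM in SLS and 18.4, 19.0 and 2.83 in LLS. The lowest value of each group lay well below the other 2 ovaries of that group, and the groups overlapped. CCL5, a T cell product that acts on CCR1 and CCR3, was at 2.74, 2.62 and 1.65 FPKM in SLS and 2.26, 3.03 and 6.78 in LLS, with ZD8 highest. CCL4, a product of macrophages and T cells, reached 1 FPKM in ZD12 and ZD8, at 1.33 and 3.52, and lay between 0.385 and 0.824 in the others. CCL3L1 and CCL22, a ligand of CCR4, reached 1 FPKM in ZD8 alone, at 1.10 and 2.27, from 10 and 50 reads. CCL8 did so in ZD12 alone, at 1.25 FPKM from 23 reads. The eosinophil-directed ligands of CCR3 were present too, while CCR3 itself had at most 15 reads in an ovary. CCL11 was at 3.29, 5.10 and 1.39 FPKM in SLS and 3.91, 0.779 and 0.926 in LLS. CCL24 was at 5.30, 1.71 and 6.12 FPKM in SLS and 1.97, 3.09 and 4.89 in LLS. CCL26 was the most uneven of the 3 across ovaries, at 0.452, 2.28 and 6.39 FPKM in SLS and 1.43, 1.81 and 16.3 in LLS, with ZD12 highest in its group and ZD8 in the other. CCL14, a ligand found in plasma that acts on CCR1, was at 2.22, 1.5 and 3.17 FPKM in SLS and 1.84, 2.20 and 3.90 in LLS. CCL25, the ligand of CCR9, reached 1 FPKM in ZD8 alone, at 1.56, and lay between 0.216 and 0.891 elsewhere.

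Of the CXC ligands with a role in inflammation, CXCL2, which draws neutrophils, was at 3.53, 5.65 and 1.41 FPKM in SLS and 4.28, 3.48 and 5.45 in LLS. CXCL8, the classic neutrophil attractant, stayed below 1 FPKM in every ovary, from 0 in ZD8, where 0 reads allowed up to the level of 3 reads, to 0.618 in ZD2. CXCL10, an interferon-induced ligand of CXCR3, was at 1.56, 2.08 and 5.08 FPKM in SLS and 1.32, 0.752 and 2.73 in LLS. Of its relatives, CXCL9 was below 0.95 FPKM and CXCL11 had at most 5 reads in an ovary, while their shared receptor CXCR3 had 4 to 16 reads. CXCL13, which draws B cells through CXCR5, reached 1.52 FPKM in ZD8 and was below 0.3 in the other ovaries. Of these CXC ligands, CXCL2 and CXCL10 were those that reached 1 FPKM in at least 3 ovaries.

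The ligands without reads, or nearly so, were CCL1, CCL27, CCL28 and XCL1. CCL1, a ligand of CCR8, had 0 reads in each ovary, CCL27 and CCL28 had at most 1, and XCL1 had 6 reads in ZD2 and 0 elsewhere. CCL16, CCL17 and CCL20 stayed below 1 FPKM, with at most 32 reads in an ovary. CCL20, the ligand of CCR6, had 0, 2 and 0 reads in SLS and 15, 11 and 0 in LLS, which is few reads in a group that also holds a 0. Of the 51 members, 32 were above 0 in every ovary and 19 had 0 reads in at least 1.

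CXCR4 was the one receptor at high level and the member with the widest range. CXCR4, the receptor of CXCL12, which acts on lymphocytes, progenitor cells and endothelium, was at 108, 103 and 21.4 FPKM in SLS and 615, 352 and 12.1 in LLS. These values rest on 7016, 5654 and 1202 reads in SLS and on 37598, 22751 and 416 in LLS. The highest 2 ovaries and the lowest 1 were all LLS, so that the LLS range enclosed the SLS range, and the highest level was 50.7 times the lowest. Without ZD8 the range over the other 5 ovaries was 28.7-fold. The annotated CXCR4 model, at chr15:15663652-15666706 on the plus strand, holds 1062 coding nucleotides and no untranslated region, and its FPKM is per this length.

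The atypical receptor ACKR3, which takes up CXCL12 and lowers the amount available to CXCR4, was at 20.6, 21.1 and 12.4 FPKM in SLS and 11.2, 16.5 and 6.41 in LLS. Like CXCR4, ACKR3 was lowest in ZD8, but its second highest and highest values were those of ZD2 and ZD3. CXCR4 was higher than ACKR3 in every ovary, by 5.26, 4.88 and 1.73 times in SLS and 54.7, 21.4 and 1.89 times in LLS. The level of CXCL12 relative to CXCR4 was 0.196, 0.333 and 1.81 in SLS and 0.0521, 0.0850 and 4.79 in LLS. By FPKM, the ligand thus exceeded its signalling receptor in ZD12 and ZD8 and was below it in the other 4 ovaries. This did not follow the groups.

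**Figure D2:**
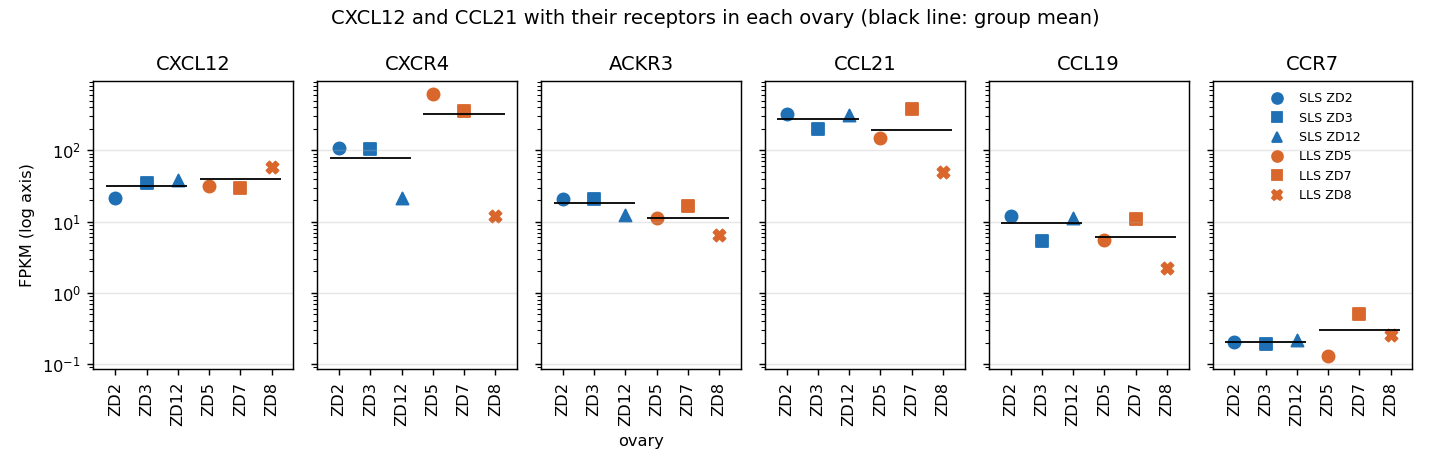
FPKM (log axis) of CXCL12, CXCR4, ACKR3, CCL21, CCL19 and CCR7, with 1 point per ovary and a black line at each group mean of 3 ovaries. CXCR4 spans 12.1 to 615 FPKM, CCL21 spans 50.3 to 375, and CCR7 stays below 1 in each ovary.

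The signalling receptors other than CXCR4 were at low levels. CCR1, a receptor of CCL5 on monocytes and granulocytes, was at 4.47, 4.12 and 1.78 FPKM in SLS and 5.27, 3.99 and 1.25 in LLS, lowest in ZD12 and ZD8. CCR1 and XCR1 overlap on the same strand of chromosome 13, so that the authors' counting could have split their reads, and their values are uncertain. CCR2, the receptor of CCL2, was at 2.99, 2.34 and 1.07 FPKM in SLS and 1.14, 1.86 and 3.17 in LLS. The order of CCL2 and CCR2 was not shared, since ZD8 had the lowest CCL2 and the highest CCR2. The neutrophil receptor CXCR2 was below 0.27 FPKM in each ovary, and CCR3, CCR4, CCR9, CCR10 and CXCR5 had at most 15 reads in any ovary. CCR6 was between 0.0166 and 0.356 FPKM.

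Of the other atypical receptors, ACKR1, which carries chemokines across the endothelium of venules, was at 3.98, 2.60 and 6.03 FPKM in SLS and 1.98, 3.56 and 4.34 in LLS. ACKR2, which degrades inflammatory CC chemokines, was at 4.60, 3.98 and 3.10 FPKM in SLS and 1.76, 4.03 and 2.20 in LLS. ACKR2 overlaps ZNF662 on the same strand, which makes its level uncertain. ACKR4, which takes up CCL19 and CCL21, stayed between 0.329 and 0.795 FPKM, and overlaps ACAD11 on the opposite strand. CXCR6, CXCR5 and CCL17 also overlap an opposite-strand gene above 9 FPKM in each ovary (FYCO1, BCL9L and CIAPIN1), and whether the counting used strand is not given in the sources used here.

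The comparison of LLS with SLS asked which genes differ with litter size. Fitted over all 12260 genes at 1 FPKM or more in at least 3 libraries with limma on log2(FPKM + 1), 0 genes were called at an adjusted p under 0.05 and a log2 fold change over 1 in size (0.0%), while 216 (1.76%) had an unadjusted p under 0.05. Of the 22 members tested, 0 were called and 0 had an unadjusted p under 0.05. On whole reads recovered from the FPKM of 12245 genes, DESeq2 called 20 (0.163%, with 304 at an unadjusted p under 0.05) and edgeR called 0 (with 220 so). None of the 22 members was called, or at an unadjusted p under 0.05, by these tools. The log2 fold changes of the 22 members ran from -0.93 for CCL21 to 1.16 for CXCR4, 9 positive and 13 negative. Their median was -0.15, beside 0.02 over all genes tested. Without ZD8, 7 were positive and 15 negative, 4 of the 22 changed sign, and the median was -0.20 beside -0.10 over all genes. The 3 atypical receptors were all negative, with a median of -0.45, while the 14 ligands had a median of -0.30 and the 5 receptors one of 0.05.

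For CXCR4 the fitted difference was 1.16 with a standard error of 1.34, and the group means were 77.6 ± 48.8 (SD, n = 3) FPKM in SLS and 326 ± 302 (SD, n = 3) in LLS. For CCL21 it was -0.93 with a standard error of 0.68, from 278 ± 66.6 to 192 ± 166 FPKM. The SD of the LLS ovaries was larger than the difference of the means for both genes. The fitted value of CXCR4 was 2.15 with edgeR, 2.13 with DESeq2 and 3.12 with limma's array weights, and that of CCL21 was -0.45 with edgeR and with DESeq2 and -0.38 with array weights, and none of these was called. CXCL14 had the smallest unadjusted limma p of the members, 0.0805 (adjusted p = 0.999), at a log2 fold change of -0.77 with a standard error of 0.39. ACKR3 followed with -0.67 (standard error 0.38), and CCL2, CCL19 and CXCL16 had -0.85, -0.68 and -0.34 with standard errors of 0.73, 0.50 and 0.29. On the positive side, CCL5 had 0.50 (standard error 0.38) and CXCL12 0.32 (0.36). Without ZD8 most of these differences were smaller, at -0.19 for CCL21, -0.34 for ACKR3, -0.06 for CCL2, -0.20 for CCL19, 0.14 for CCL5 and 0.02 for CXCL12, while CXCL16 stayed at -0.33. CCL26 turned from 0.58 with all ovaries to -0.33. With all 6 ovaries, none of these differences exceeded the spread between the ovaries by the test used.

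**Figure D3:**
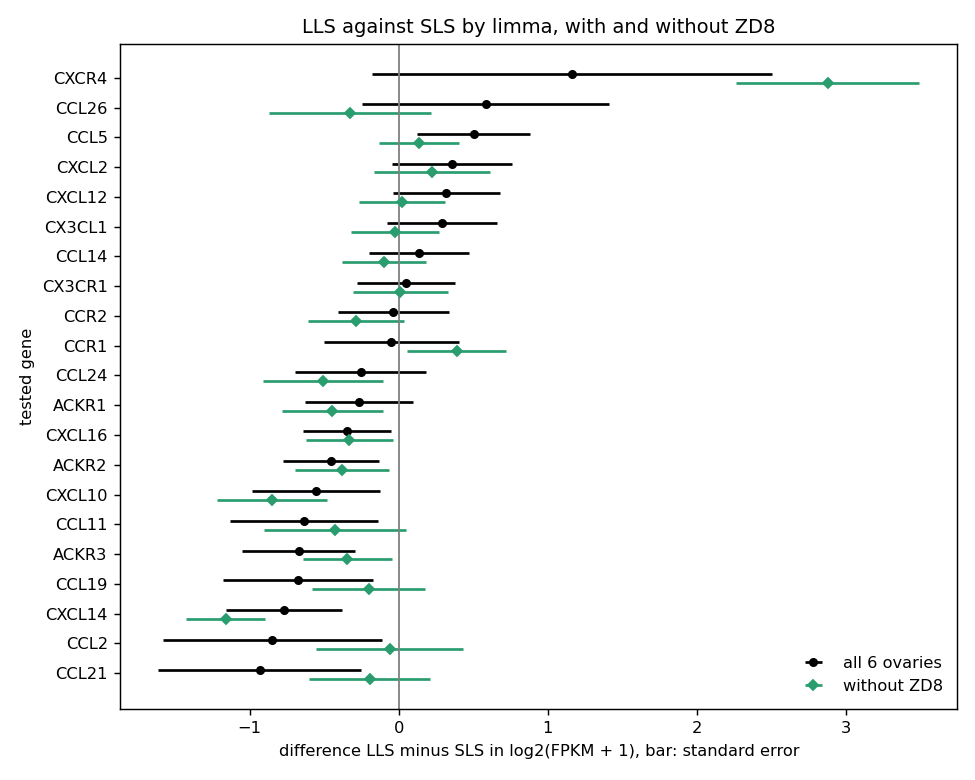
Difference of LLS minus SLS in log2(FPKM + 1) for 21 tested members, with all 6 ovaries (circles) and without ZD8 (diamonds) and bars of 1 standard error from limma. With all ovaries the values run from -0.93 for CCL21 to 1.16 for CXCR4, and without ZD8 CXCR4 is at 2.88.

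Without ZD8, CXCR4 was higher in each remaining LLS ovary than in each SLS ovary, and CXCL10 and CXCL14 were lower. Among all genes tested, the groups did not overlap without ZD8 for 19.1%, 7.44% higher and 11.7% lower in LLS, so that such a pattern was common in these 5 ovaries.

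In a fit added after seeing the data, DESeq2 called CXCR4 and CXCL14 among the tested members when ZD8 was left out, and no member of the 22 when any of the other 5 ovaries was. Without ZD8, the mean CXCR4 level of the 2 LLS ovaries was 6.23 times that of SLS, and the log2 fold change was 2.88 (standard error 0.61). The Benjamini-Hochberg adjusted p was then 0.154 in limma, 0.293 in edgeR and 0.00174 in DESeq2. For CXCL14 the log2 fold change without ZD8 was -1.16 (standard error 0.26), and the adjusted p values of limma, edgeR and DESeq2 were 0.175, 0.284 and 0.00297. Without ZD8, limma called 21 of 12260 genes (0.171%) and edgeR 0 of 17039 (0.0%), neither gene among them, while DESeq2 called both among 258 genes (1.51%). With ZD8 none of these 3 tools called either gene.

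CCR8, a receptor of CCL1 found mainly on regulatory and type 2 helper T cells, lay below 0.32 FPKM in every ovary and differed between the groups in its reads. The gene lies at chr13:23994097-24014849 on the plus strand of Sscrofa11.1, 36529 nucleotides beyond the end of CX3CR1. It was at 0, 0.0114 and 0.0167 FPKM in SLS and 0.240, 0.314 and 0.209 in LLS, from 0, 2 and 3 reads in SLS and 47, 65 and 23 in LLS. Each LLS ovary, ZD8 included, lay above each SLS ovary. Summed over ovaries, 5 reads of 165521433 stood against 135 of 150739233, a ratio of the rates of 29.6 with an exact 95% interval of 12.4 to 92.8 that covers counting error only. Its ligand CCL1 had 0 reads in all 6 ovaries, and CCL8, a further ligand of CCR8, was at 0, 0 and 1.25 FPKM in SLS and 0.551, 0.0947 and 0.804 in LLS. CCR8 was looked at with earlier results of these data known.

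CCR8 did not reach the level required for the test of the 22 members. Over the 23564 genes above 0 in any ovary, the groups did not overlap for 4.77%, with 2.36% higher in LLS. With no further filter, limma over these genes gave CCR8 a log2 fold change of 0.31 on log2(FPKM + 1), which understates changes at low levels, and an adjusted p of 0.993. CCR8 passed every stricter filter only through the LLS ovaries, where it is high, so the values of those fits describe it and do not count as support for a difference. At 0.1 FPKM in at least 3 libraries, limma gave the same 0.31 (standard error 0.12) with an adjusted p of 0.999 over 16585 genes. On the recovered reads of 17039 genes, edgeR gave a log2 fold change of 4.73 with an adjusted p of 1.0 and called 0 genes. DESeq2 called 20 genes (0.117%) of the same reads, CCR8 among them at 4.83 (standard error 1.17) and an adjusted p of 0.0361. Leaving out each ovary in turn, the DESeq2 log2 fold change ran from 4.24 to 5.44 and the adjusted p from 0.00317 to 0.553. CCR8 was called in 1 of the 6 fits, that without ZD8.

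**Figure D4:**
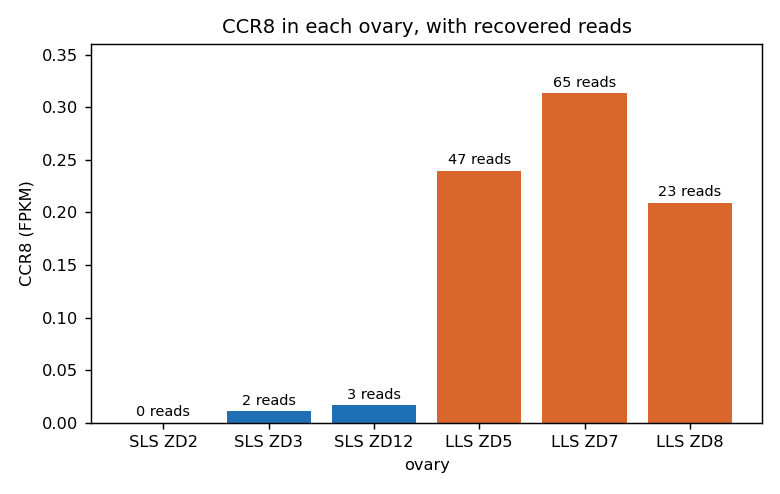
Level of CCR8 in each of the 6 ovaries in FPKM, with the reads behind each value. The SLS ovaries have 0, 2 and 3 reads and the LLS ovaries 47, 65 and 23.

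T cells are the main known carriers of CCR8, and their 10 markers summed to 7.19, 5.01 and 5.47 FPKM in SLS and 4.83, 8.54 and 18.6 in LLS. None of the 10 was at 0 in all ovaries, and 3 passed the filter, and limma called 0 of these, with 0 below an unadjusted p of 0.05. The markers did not move as 1 group. CD4, of helper and regulatory T cells, was at 0.760, 0.385 and 0.333 FPKM in SLS and 0.991, 1.17 and 1.12 in LLS. FOXP3, the transcription factor of regulatory T cells, was at 0.0533, 0.0432 and 0.0537 FPKM in SLS and 0.113, 0.0866 and 0.283 in LLS. Like CCR8, both were higher in each LLS ovary than in each SLS ovary, a pattern of 2.36% of the genes above 0 in any ovary, while the groups of the other 8 markers overlapped and the summed level of ZD5 lay below each SLS ovary. The part of T cell numbers in the CCR8 difference was not tested.

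Among the members, ZD8 was the highest of the 6 ovaries for 7 of 22 and the lowest for 6 of 22. Over all genes tested these shares were 44.6% and 26.3%. The 5 members at 1 FPKM or more in ZD8 alone were CCL22, CCL25, CCL3L1, CXCL13 and CXCR6. ZD8 also had the highest summed T cell level, 18.6 FPKM, and the highest level of JCHAIN, the joining chain of secreted antibodies, at 7.40 FPKM against 0.992 to 2.40. Macrophage markers summed to 125 FPKM in ZD8, within the range of 65.9 to 141 in the other ovaries, and endothelial markers to 115 against 244 to 371. Granulocyte markers summed to 1.17 to 5.18 FPKM, with MPO and ELANE at 0 in every ovary. The part of these cell types in the levels of the members was not tested.

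The range between ovaries differed widely from member to member. For the 17 members at 1 FPKM or more in every ovary, the median ratio of the highest to the lowest ovary was 3.58, beside 2.28 over the 10969 genes at this level. Without ZD8 these medians were 2.61 and 1.75. With all 6 ovaries, the widest ranges were those of CXCR4 (50.7-fold), CCL2 (11.2-fold) and CCL21 (7.46-fold), and the narrowest that of CXCL16 (2.0-fold). Without ZD8 the widest were CXCR4 (28.7-fold), CCL2 (4.08-fold) and CXCL2 (4.02-fold). CCL21 was then at 2.49-fold, and CX3CL1 was narrowest at 1.70-fold. These are descriptions of 6 ovaries with no test.

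**Figure D5:**
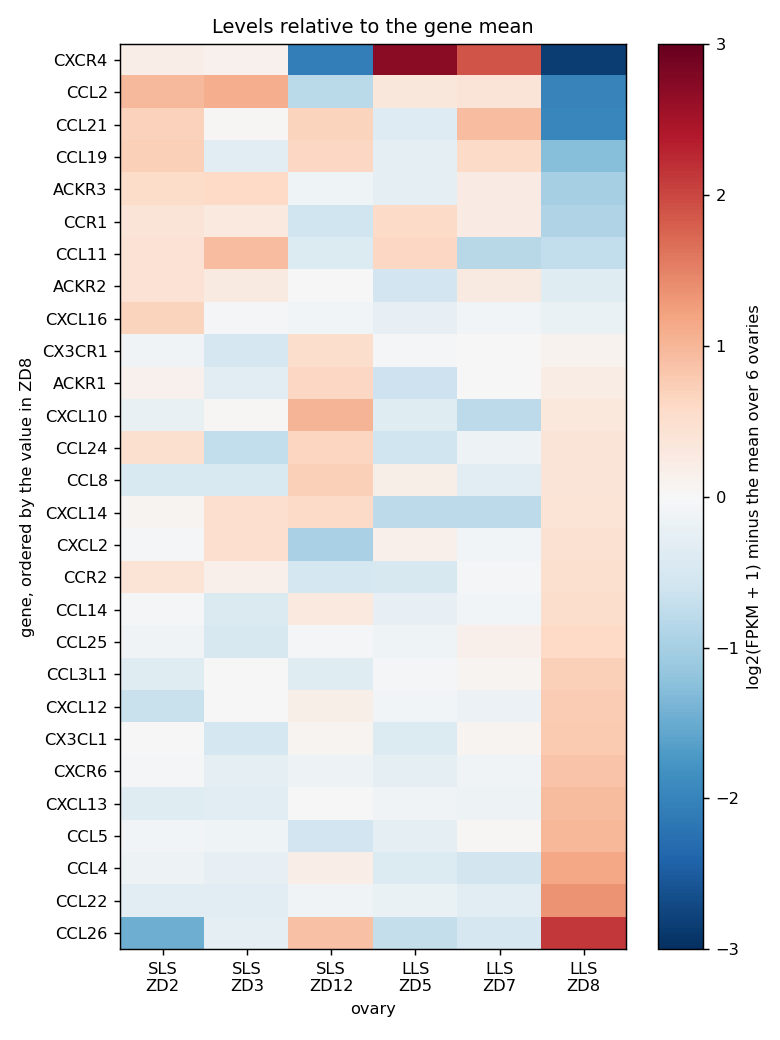
log2(FPKM + 1) of 28 members at 1 FPKM or more in at least 1 ovary, relative to each gene's mean over the 6 ovaries, with 1 column per ovary, genes ordered by their value in ZD8 and colour from low (blue) to high (red). CXCR4 is high in ZD5 and ZD7 and low in ZD8 and ZD12.

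Many members are neighbours in the genome. Chromosomes 12 and 13 each carry 12 of the 51 and chromosome 8 carries 6. On chromosome 12, CCL2 (chr12:40798109-40800013, minus strand) lies beside CCL11 (chr12:40779906-40782862, minus), and the lowest of the 6 ovaries was ZD8 for CCL2 and ZD7 for CCL11. Another group on chromosome 12, CCL4, CCL3L1, CCL14, CCL16 and CCL5, was highest in ZD8 throughout. On chromosome 13, CCR2 (chr13:29368735-29374564, plus) was highest in ZD8. CCR1 (chr13:29227218-29233862, minus) lies in the same cluster and was lowest in ZD8.

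The genes that carry chemokine receptor signals inside the cell were measured as well. Of 42 listed symbols, 40 were in the table. The symbols not found, ADRBK1 and ADRBK2, are older names of GRK2 and GRK3, which were listed and found. Of the genes found, 35 were tested, with 0 called and 0 at an unadjusted p under 0.05 by limma. Their median log2 fold change was 0.00. RHOA, CDC42 and RAC1, small GTPases of cell movement, had the highest levels of the list, with log2 fold changes of -0.38, -0.25 and -0.14. Genes with chemokine activity outside the naming rule gave 9 in the table and 7 tested, with 0 called. AMCF-II, a porcine CXC chemokine that draws neutrophils, was at 2.88, 2.04 and 1.05 FPKM in SLS and 0.537, 1.51 and 0.125 in LLS, with a log2 fold change of -0.83 (standard error 0.39) and a limma p of 0.0667 (adjusted p = 0.999). Its groups overlapped, with ZD8 lowest. MIF, a cytokine that also binds CXCR4 and CXCR2, was at 955, 625 and 688 FPKM in SLS and 1149, 1142 and 169 in LLS. RARRES2, the precursor of chemerin, was highest in ZD8 at 341 FPKM against 59.3 to 111, and CD74, the MIF receptor chain, was highest there at 124 against 40.5 to 73.4.

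The small RNA libraries that carry the same ovary numbers hold the miRNAs miR-146a, miR-146b and miR-150, known from other systems for immune cells and, for miR-146a and miR-150, for acting on CXCR4. Their mature sequences are given with the seed (bases 2 to 8) in capitals, because miR-146a-5p and miR-146b share it.
miR-146a-5p: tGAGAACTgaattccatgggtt
miR-146b: tGAGAACTgaattccataggc
miR-150: tCTCCCAAcccttgtaccagtg

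In reads scaled to the library total (RPM), miR-146a-5p was at 12.8, 11.9 and 25.9 in SLS and 18.2, 11.5 and 26.4 in LLS, highest in ZD12 and ZD8. miR-146b was at 22.3, 20.1 and 3.75 RPM in SLS and 25.8, 22.0 and 2.88 in LLS, and so lowest in the same 2 ovaries. These 2 ovaries were also the lowest in CXCR4. miR-150 was at 41.6, 95.5 and 70.5 RPM in SLS and 97.2, 64.2 and 94.1 in LLS and showed no such order. These miRNAs were picked from 457 and were not among the planned results. With 6 ovaries these are levels side by side, and the part of the makeup of ZD8 in them was not tested. No site was searched, since the annotated CXCR4 model has no 3′ untranslated region.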

How the data were processed

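One library of total RNA and 1 of small RNA per ovary were used, for 3 SLS and 3 LLS sows. By the study's methods, the authors mapped trimmed reads to Sscrofa11.1 with HISAT2 and deposited FPKM values per gene; the counting program and its use of strand are not given in the sources used here. The miRNA values that the authors deposited are RPM, reads scaled to the small RNA total of the library, although they are called TPM in the file. All 12 columns were used.

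The deposited FPKM were turned back into whole reads with the longest annotated transcript for 23477 of 23564 genes above 0 (99.6%, tolerance 0.001), and for all 51 members. The study used DESeq2 for genes, which needs counts, so the main test was limma 3.58.1 (R 4.3.3) with a trended variance on log2(FPKM + 1) over genes with at least 1 FPKM in at least 3 libraries, with Benjamini-Hochberg adjustment over all genes tested. edgeR 4.0.16 and DESeq2 1.42.0 on the recovered reads were alternatives, beside the pseudocount, filter, normalization, array weights and leaving out each ovary. For CCR8, the filters of at least 0.1 FPKM and of none were planned, while the other fits, and edgeR and DESeq2 without ZD8, were chosen after seeing the data. The scripts were tested on simulated data. The p-values set the difference between the groups against the spread between sows within groups, with a variance moderated over all genes tested. The depth was 32272803 to 60903268 reads per gene library and 3537619 to 9854086 per small RNA library. Named were members at 1 FPKM in any ovary, those with an unadjusted p under 0.05, and CCR8, and the up to 3 highest genes of each list; members below 1 FPKM in every ovary other than CCR8, and AMCF-II, PROX1, CD4, FOXP3, MPO and ELANE, were named after their values were seen. The members and lists were chosen with earlier results of these data known. The values of 1 member are not reported here, although counts and medians over the members include it unless another number of members is given.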

Additional observations from a re-analysis of the deposited data

How the results depend on the processing

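Over all genes, limma's 0 calls became 13 with array weights, 20 with DESeq2 on recovered reads, and 0 to 21 when each ovary was left out, with 21 without ZD8. Among the members, 0 calls became 1 (CCR8) with DESeq2 on the reads of genes kept by edgeR's filterByExpr, an alternative chosen after seeing the data, and 3 (CCR8, CXCR4 and CXCL14) without ZD8 in that fit. Members whose groups did not overlap, counted over 50, rose from 1 (CCR8) to 6 without ZD8, beside 4.77% and 16.8% of the genes above 0 in any ovary. The log2 fold change of CCL2 turned from -0.85 to 0.20 with array weights. That of CCR8 was 4.83 with DESeq2 and 5.07 with DESeq2 without ZD8, past the threshold in both, but CCR8 passed that filter only through the LLS ovaries. The cause of these shifts was not tested. In limma, leaving out each ovary moved CXCR4 between 0.10 and 2.88 and CCL21 between -1.63 and -0.19, with the sign kept, and the adjusted p of CXCR4 between 0.154 and 1.0, while DESeq2 without ZD8 gave 0.00174. No paired analysis was made, because the labels name no animal, litter or batch that would pair an SLS with an LLS ovary. Whether ovaries shared a batch is not given in the labels. The precision of a value follows its reads rather than its FPKM: CCL3L1 at 1.10 FPKM rests on 10 reads and CCL25 at 0.891 on 146.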
